A study of Mus musculus with 12 samples.

Results

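The wide open domains described here are the merged ATAC-seq regions of 2500 bp or more that held a peak in at least 6 of 12 libraries of mouse HoxB8 cells. They were found by joining every peak of the 12 broad peak lists that overlapped another by 1 bp or more and keeping the wide regions of chromosomes 2 to 19. Of 56682 merged regions, 101 met the rule, or 0.178%. They were chosen by their measured width and by the number of libraries with a peak, so both are given as a description. The lists hold intervals and no reads, so the measure used throughout is the number of bp of a domain that the peaks of a library cover, scaled to the mean covered length of the 12 lists.

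HoxB8 cells are bone marrow cells immortalised through Hoxb8, kept with stem cell factor and estrogen, and all libraries were made 48 h after estrogen was withdrawn. The sgB2/T618I cells carried the B2 guide against Asxl1 and the pMICH vector with CSF3R T618I, and the sgNT/T618I cells carried a non-targeting guide with the same vector. The sgB2/Empty cells carried the B2 guide with pMICH-Empty, and the sgNT/Empty cells carried the non-targeting guide with pMICH-Empty. Each of these 4 groups had 3 libraries, which makes 6 libraries for each vector and for each guide. The labels name neither separate clones nor separate cultures, so p-values measure the spread between these libraries, which may be technical, and the peak lists do not show whether Asxl1 was cut.

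ATAC-seq cuts DNA where nucleosomes leave it accessible, and most accessible sites are short promoters or enhancers. Unusually broad accessible stretches are known at CpG-rich promoters of genes for transcription factors and at runs of neighbouring enhancers. ASXL1 is a chromatin protein that works with the BAP1 deubiquitinase and is linked to Polycomb repression, and CSF3R is the receptor for granulocyte colony-stimulating factor, with T618I an activating substitution found in chronic neutrophilic leukaemia.

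The sequences below belong to the domains on which the results turn. Each promoter runs from 250 bases before to 50 bases after a gene start, is taken from RefSeq on GRCm38.p6 and is written 5′ to 3′ on the strand of the gene. Capitals mark matches on either strand to the letters searched, which were GGGCGG for SP1, CCAAT for the CCAAT box, TGANTCA for AP-1, TTGCNNAA for C/EBP, GAGGAAGT for PU.1 and TGACGTCA for CRE. Csrnp1, Tmc6 and Pcmt1 are shown because their domains covered more bp with T618I, and Gfi1 because it is the widest domain at a myeloid transcription factor gene.
Csrnp1, chr9:119982974-119983273, minus strand: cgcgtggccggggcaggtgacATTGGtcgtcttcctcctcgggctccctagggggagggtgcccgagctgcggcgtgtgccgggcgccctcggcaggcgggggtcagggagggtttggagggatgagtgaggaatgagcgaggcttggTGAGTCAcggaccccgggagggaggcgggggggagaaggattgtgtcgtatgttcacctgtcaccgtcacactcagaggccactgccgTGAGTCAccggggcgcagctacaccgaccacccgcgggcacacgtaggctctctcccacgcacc
Tmc6, chr11:117780643-117780942, minus strand: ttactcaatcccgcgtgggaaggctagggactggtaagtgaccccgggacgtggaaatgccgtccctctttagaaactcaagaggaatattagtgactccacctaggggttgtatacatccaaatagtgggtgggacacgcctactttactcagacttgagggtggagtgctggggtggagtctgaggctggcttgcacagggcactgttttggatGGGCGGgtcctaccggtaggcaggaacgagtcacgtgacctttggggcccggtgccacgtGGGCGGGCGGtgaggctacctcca
Pcmt1, chr10:7663559-7663858, minus strand: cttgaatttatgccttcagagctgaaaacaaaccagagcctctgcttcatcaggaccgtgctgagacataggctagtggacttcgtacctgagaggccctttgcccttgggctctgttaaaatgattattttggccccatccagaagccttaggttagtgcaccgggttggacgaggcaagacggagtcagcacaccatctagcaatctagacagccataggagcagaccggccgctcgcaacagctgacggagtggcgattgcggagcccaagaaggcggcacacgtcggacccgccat
Gfi1, chr5:107725756-107726055, minus strand: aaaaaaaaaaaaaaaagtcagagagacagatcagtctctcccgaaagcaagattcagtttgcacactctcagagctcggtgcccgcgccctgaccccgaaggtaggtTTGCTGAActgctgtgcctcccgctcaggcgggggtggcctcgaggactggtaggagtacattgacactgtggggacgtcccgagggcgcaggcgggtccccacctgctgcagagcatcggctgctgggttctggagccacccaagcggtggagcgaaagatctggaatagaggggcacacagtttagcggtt
The Csrnp1 window held 2 AP-1 matches, 102 and 14 bases before the start, and 1 CCAAT match on the opposite strand. The Tmc6 window held 3 SP1 matches that included an overlapping pair, the Gfi1 window held 1 C/EBP match, and none of the 6 motifs was found in the Pcmt1 window.

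Mature microRNA sequences, also from RefSeq, are given for the cluster beside the domain nearest Gpc5, to show the genes that this intergenic domain adjoins. Capitals mark the seed (bases 2 to 8).
mmu-miR-17-5p, beside the domain nearest Gpc5: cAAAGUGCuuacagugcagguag
mmu-miR-20a-5p, beside the domain nearest Gpc5: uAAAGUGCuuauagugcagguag
mmu-miR-19a-3p, beside the domain nearest Gpc5: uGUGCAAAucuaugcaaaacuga
mmu-miR-19b-3p, beside the domain nearest Gpc5: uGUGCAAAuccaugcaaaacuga
mmu-miR-92a-3p, beside the domain nearest Gpc5: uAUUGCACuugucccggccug
Mature miR-17-5p and miR-20a-5p share the seed AAAGUGC, and miR-19a-3p and miR-19b-3p share the seed GUGCAAA.

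The domains were wide as a union of libraries more often than in any 1 library. Their widths ran from 2503 to 3814 bp with a median of 2727 bp, against a median of 765 bp for the 21359 narrower regions of chromosomes 2 to 19 with a peak in at least 6 libraries, and 19 domains reached 3000 bp. A peak stood in all 12 libraries in 90 domains, and the other 11 had a peak in 7 to 11 libraries. On average a library covered 57.5% of the width of the median domain, and the part covered in all 12 libraries had a median of 547 bp, or 19.2% of the width. A single peak of 2500 bp or more was present in at least 1 library for 65 domains and in 6 or more libraries for 8. The domain over the ends of LOC108167694 and Gm20783 (chr9:124422723-124425904) was the only domain with such a peak in all 12 libraries, and its shared part was 2955 of 3182 bp. In 83 domains the cover broke into several peaks in at least 1 library. In the median domain, the peaks with the highest q values ranked near the middle of their lists. The highest −log10 q of each library in a domain, ranked within the own list of that library, had a median percentile of 55.3. The highest fold over local background of each library in a domain, the authors' own value, had a median of 3.9. The coefficient of variation of scaled cover over the 12 libraries ran from 9.5% at Fermt3 to 124.8% at Ttc28, with a median of 30%. Chromosome 11 held 14 domains (13.86%, against 8.544% of the narrower regions), chromosome 5 held 12 (11.88%, against 6.915%) and chromosome 4 held 1 (0.9901%, against 6.934%).

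**Figure D1:**
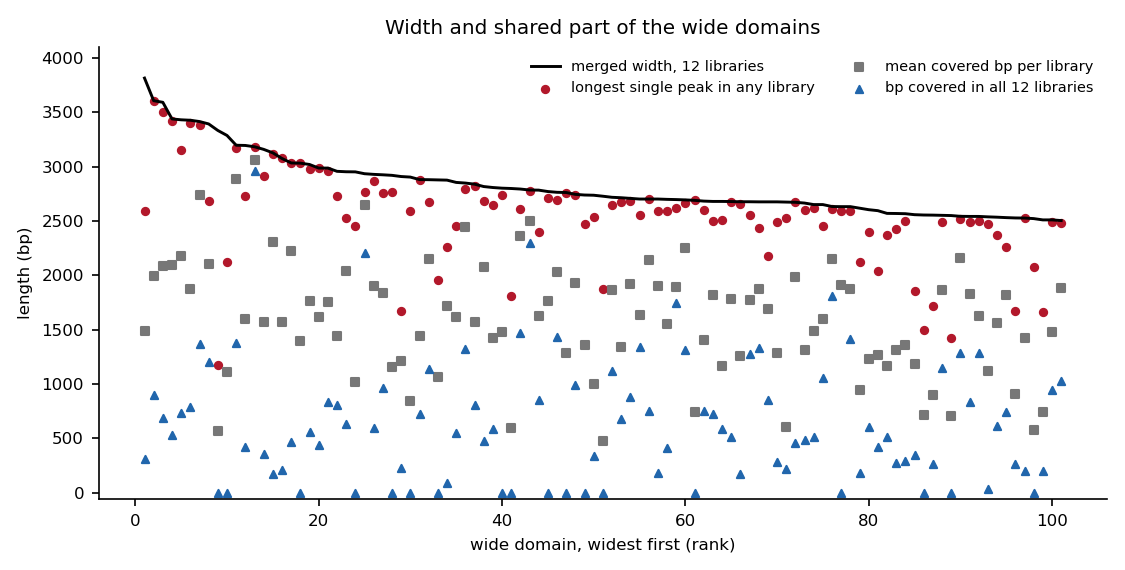
Each position on the horizontal axis is a domain, widest first, and the vertical axis is length in bp: the merged width (line), the longest single peak in any library (circles), the mean covered bp per library without scaling (squares) and the bp covered in all 12 libraries (triangles). The shared part ranges from 0 to 2955 bp and lies well below the merged width in most domains.

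The widest domain covered the start of Ctsz, the gene for the lysosomal protease cathepsin Z (chr2:174436287-174440100, 3814 bp). Its scaled cover was 1122, 1131 and 1606 bp in the sgB2/T618I libraries, 2058, 2228 and 1318 bp in the sgNT/T618I libraries, 672, 1289.9 and 1198 bp in the sgB2/Empty libraries and 1299.8, 1129.9 and 2158 bp in the sgNT/Empty libraries. No library came near its full width, and the sgNT/T618I libraries lay above the sgB2/Empty libraries while the other pairs of groups overlapped. Next in width stood domains at Nipbl, which encodes a loader of the cohesin ring (3606 bp), at Cdk6, a cell cycle kinase (3591 bp), and at N4bp2l1 (3438 bp). The domain at Gfi1, a zinc finger repressor needed for neutrophil formation, measured 3430 bp, and that at Jade2, a subunit of a histone acetyltransferase complex, 3426 bp. Domains at Klf13, a Krüppel-like factor (3414 bp), Irf2bp2, a corepressor of IRF2 (3392 bp), Smagp, a small transmembrane glycoprotein (3332 bp), and Hmga2, an architectural chromatin protein (3286 bp), completed the 10 widest. Klf13 was covered over 80.3% of its width by the average library and Smagp over 17.1%, so equal widths stood for unlike cover.

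Near the width limit the domains looked like their narrower neighbours. The 3 domains just inside 2500 bp lay at Cebpb (2503 bp, mean scaled cover 1929 bp), Emid1 (2509 bp, 764 bp) and Gm42166/Lrrc8d (2509 bp, 1476 bp). The 3 regions just outside lay at Runx2 (2487 bp, 1433 bp), Rbpms (2493 bp, 809 bp) and Lrch1 (2497 bp, 1474 bp). One further region, a second site in Arid1b of 2581 bp, was wide enough but held a peak in only 5 libraries.

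Protein-coding gene ends lay inside 51 of the 101 domains (50.5%), another 36 (35.64%) lay within a gene span without reaching its end, and 14 (13.86%) lay outside protein-coding genes. The same shares were 51.02%, 30.34% and 18.64% in the 1513 regions that were at least 1500 bp wide but under the limit, and 33.61%, 37.21% and 29.18% in all narrower regions, where a shorter interval also has less room to hold a gene end. Gene starts in the RefSeq promoter table fell in 55 domains and belonged to 61 genes; the table has no entries for chromosome 18. The ratio of observed to expected CG pairs had a median of 0.767 over the 84 starts in wide domains, 0.812 over the 8447 starts in narrower regions and 0.567 over all 21263 protein-coding starts in the table. An SP1 match was present in 63.1% of the starts in wide domains, 69.72% of those in narrower regions and 46.2% of all starts. For AP-1 the shares were 4.762%, 4.215% and 6.989%, for C/EBP 9.524%, 7.66% and 10.17%, and for PU.1 7.143%, 3.374% and 3.132%. CCAAT was found in 25%, 39.29% and 38.19%, and CRE in 1.19%, 3.8% and 2.234%.

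Several domains spanned clusters of tRNA genes, which RNA polymerase III transcribes. A tRNA gene was found in 4 domains (3.96%), in 1.256% of the regions from 1500 bp up to the limit and in 0.4541% of all narrower regions, and the 4 domains held 17 of the 354 tRNA genes annotated on chromosomes 2 to 19. The domain between Hes7, a transcriptional repressor of the segmentation clock, and Aloxe3, a lipoxygenase of the skin, held 4 tRNA genes (chr11:69122352-69125547). The domain at Rnase4 and Ang, both secreted ribonucleases, held 3, and the domain 15.5 kb from Osbp and the domain 11.3 kb from the histone gene H4c8 held 5 each. Scaled cover of the Hes7/Aloxe3 domain had a mean of 2639 ± 271 bp in T618I libraries and 3298 ± 630 bp in Empty libraries (SD, n = 6 each). Values above the width of 3196 bp occur because short lists were scaled up. Without scaling, this domain was covered over 2106 to 3175 bp in T618I libraries and over 2195 to 3102 bp in Empty libraries. The lower T618I mean was present only after scaling. The other 3 tRNA domains had T618I and Empty means of 1430.0 ± 446 and 1729 ± 896 bp (Rnase4/Ang), 1595 ± 447 and 1247 ± 127 bp (near Osbp) and 1859 ± 285 and 2047 ± 533 bp (near H4c8). The spread between libraries exceeded the difference of the means at Rnase4/Ang and near H4c8, and none of the 4 domains passed the test for a vector or guide change described below.

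The hairpin of Mir7653 lay in the domain at Nek8/Tlcd1. The domain 49.3 kb from Gpc5 (chr14:115040361-115042890) held no hairpin but ended 781 bp before that of Mir17, the first of the miR-17-92 cluster, which is known in mouse for its role in the survival of B cell progenitors. It was singled out after its position was seen. Its scaled cover was 1846 ± 418 bp in T618I libraries and 1864 ± 600.2 bp in Empty libraries, and 1630.4 ± 459.6 bp in sgB2 libraries and 2079 ± 450.2 bp in sgNT libraries (SD, n = 6 each). The groups overlapped in both comparisons.

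By the known role of the genes they cover, sorted after the domains had been listed, 25 domains lay at transcription factors or cofactors, 10 at chromatin proteins and 8 at genes with a known function in leukocytes. Narrower regions and all genes were not sorted this way, so these counts give no measure of enrichment. The factors included Gfi1 and Cebpb of the myeloid programme, Hhex, Cux1, Klf13, Klf16 and Dach1, and the chromatin proteins included the demethylase Kdm6b, the SWI/SNF subunits Arid1b and Arid2, and Kmt2e, a member of the trithorax family. The leukocyte genes included Fermt3, the integrin activator kindlin-3, Coro1a, an actin regulator, Arhgdib, a regulator of small GTPases, Plcg2, a phospholipase of immune receptors, and Cd74, the MHC class II invariant chain. A library covered a median of 63.5% of the factor domains, 70.6% of the chromatin protein domains and 42.4% of the leukocyte domains. In the T618I to Empty comparison the log2 change ran from -0.48 to 0.86 over the factor domains, from -0.25 to 0.87 over the chromatin protein domains and from 0.02 to 1.38 over the leukocyte domains. Cd74, Arhgdib, Plcg2 and Coro1a reached 2500 bp through the T618I libraries only, with Empty runs of 1102, 2002, 1059 and 1056 bp, while Fermt3 reached it with either vector. Values above 0 were thus partly built into the choice of leukocyte domains, and differences between the roles were not tested. Among these domains, Csrnp1 passed the T618I test.

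Lists of genes relevant to these cells met the wide domains at few members. Myeloid transcription factors were overlapped at 2 of 25 genes (8.0%), Gfi1 and Cebpb, the Polycomb and BAP1 list at 1 of 20 (Kdm6b) and the replication-dependent histones at 2 of 44 (H3c3 and H2bc3, in the same domain), against 103 of all 19461 protein-coding genes of these chromosomes (0.5293%). No member of the other 12 lists lay in a wide domain, and none of the domains lay at Asxl1, Csf3r or Hoxb8. Those lists were AP-1 and immediate early genes, Hoxa and Hoxb genes, NF-kB and its inhibitors, cytokine receptors with JAK, STAT and SOCS genes, primary granule, mature neutrophil, monocyte and macrophage, mast cell with basophil and eosinophil, stem and progenitor, erythroid and megakaryocyte, B and T lymphoid, and housekeeping genes. A check of the cell label by peaks at marker genes found 7 of 8 myeloid progenitor and granulocyte markers with a peak in at least 6 libraries, 3 of 3 macrophage, 2 of 4 B cell, 2 of 4 erythroid, 1 of 4 T cell and 1 of 3 mast cell markers.

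The part of each peak list that fell in wide domains was about 1% in every group, and the sgB2/Empty lists lay below both sgNT groups. The domains held 1.02 to 1.24% of the covered length of the sgB2/T618I lists, 1.163 to 1.304% of the sgNT/T618I lists, 1.029 to 1.114% of the sgB2/Empty lists and 1.121 to 1.249% of the sgNT/Empty lists. Over 6 libraries each, the scaled cover summed to 165.8 ± 14.3 kb with T618I and 157.4 ± 11.3 kb with Empty (SD), and to 153.7 ± 11.6 kb with sgB2 and 169.5 ± 9.52 kb with sgNT (SD). The guide means differed by more than either SD and the vector means by less, with no test made of either. The sgNT libraries alone joined 50 domains to 2500 bp that the sgB2 libraries alone did not, and the reverse held for 7. For T618I and Empty these numbers were 49 and 13. Higher sums with sgNT and with T618I were therefore partly built into the choice of domains. The total covered length ran from 12.58 to 17.92 Mb in T618I lists and from 9.23 to 16.84 Mb in Empty lists. The number of domains held as a single peak of 2500 bp or more was 13 ± 7.81 in sgB2/T618I libraries, 28 ± 7.0 in sgNT/T618I libraries, 4.67 ± 3.06 in sgB2/Empty libraries and 12 ± 10.1 in sgNT/Empty libraries (SD, n = 3 each). This number was not scaled to list length, which moved with it: the sgB2/Empty and sgNT/Empty lists of 9.46 and 9.23 Mb gave the counts of 2 and 3, and its part in these counts was not tested.

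**Figure D2:**
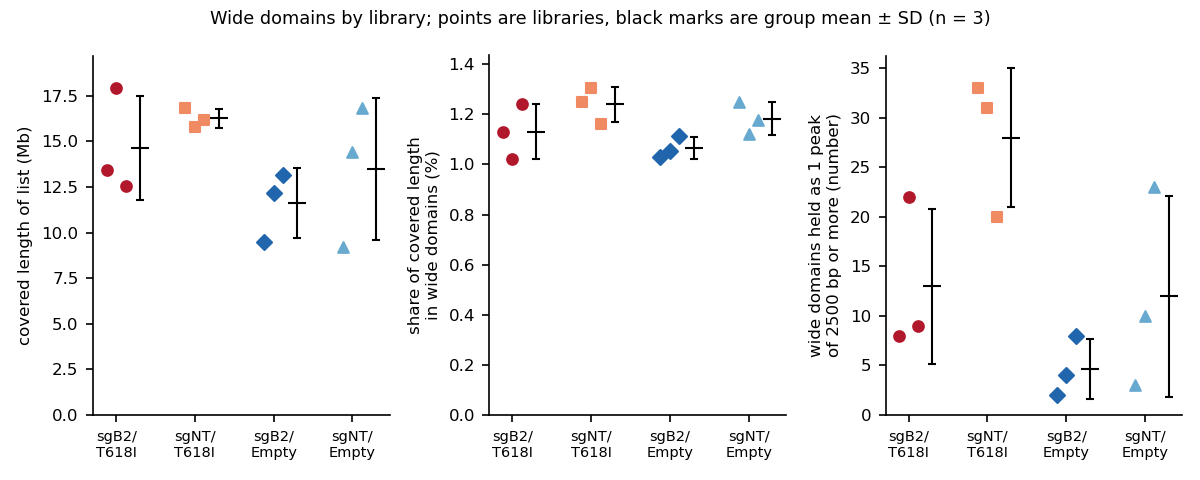
The 3 panels plot the covered length of each peak list in Mb, the share of it in wide domains in percent, and the number of wide domains held as 1 peak of 2500 bp or more; points are libraries of the 4 groups and black marks are the group mean ± SD (n = 3). The share in wide domains stays between 1.02 and 1.304% in all 12 libraries, while the number of domains held as 1 peak ranges from 2 to 33.

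Which libraries joined a region to 2500 bp differed by vector and guide. T618I libraries alone joined 79 domains to 2500 bp and Empty libraries alone 43, with 30 domains in both sets. The sgB2 libraries alone joined 42 and the sgNT libraries alone 85, with 35 in both. These counts follow list length as well, and a domain that T618I lists alone or sgNT lists alone joined was chosen partly for its cover there.

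CSF3R T618I was associated with wider cover of 4 domains, at Csrnp1, Tmc6/Tmc8, Pcmt1 and an intergenic site on chromosome 14, and with narrower cover of 0. Of the 4, Csrnp1 reached 2500 bp in the libraries of each vector alone, with runs of 2691 bp for T618I and 2560 bp for Empty. The other 3 reached it through the T618I libraries only, so a difference towards T618I was built into their choice and their tests are no independent support for it. The comparison asks how the activated receptor changed accessibility over both guides, and was fitted with limma over all 37113 merged regions with a peak in at least 2 libraries, on log2 of scaled covered bp plus 200 bp, with Benjamini-Hochberg adjustment over all of them and a threshold of 0.05. Of the 101 domains 3.96% passed as higher, against 4.11% of all tested regions, and none passed as lower, against 1.32%, or 5.42% of all tested regions in either direction. Thus the share called was close to that of the whole set. At an unadjusted p below 0.05 there were 20 domains in either direction (19.8%), against 19.38% of all tested regions. The median log2 change was 0.07 over the domains and -0.03 over all tested regions. In 49 domains the T618I libraries alone reached 2500 bp and the Empty libraries alone did not, and in 13 the reverse held. Values above 0 were therefore partly built into the choice of domains. In no domain were the T618I libraries all above or all below the Empty libraries, against 1.51% and 0.886% of all tested regions.

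The domain with the largest change lay on chromosome 14 (chr14:36467914-36470602), 370.5 kb from the nearest protein-coding gene, 4930474N05Rik. It was covered over 790.3, 777 and 363 bp in the sgB2/T618I libraries, over 2236, 1563 and 1420.1 bp in the sgNT/T618I libraries, over no bp in the 3 sgB2/Empty libraries and over 617 bp in 1 of the 3 sgNT/Empty libraries. All T618I libraries had a peak there and a single Empty library did, with cover between those of the sgB2/T618I libraries. The log2 change was 2.304 ± 0.32 (SE, limma adjusted p = 0.00183), with an exact two-sided permutation p of 0.005, the smallest the 400 arrangements allow. The site reached 6 libraries and 2500 bp through its T618I peaks only, with joined runs of 2689 bp for T618I and 480 bp for Empty, and the size depends on the 200 bp added where no peak is listed. The call held without any single library (adjusted p of 0.00958 or less), but with peaks of −log10 q under 3 removed the change was 1.135 at an adjusted p of 0.347, and with all lists cut to the length of the shortest no peak was left there. Over all alternatives its adjusted p ran from 4.28e-05 to 1.0.

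Csrnp1 encodes a cysteine- and serine-rich nuclear protein, and its domain (chr9:119981556-119984253) lay inside the gene over 2 of its annotated starts. The cover was 2622.5, 1379 and 1625 bp in the sgB2/T618I libraries, 2152, 2254 and 1452 bp in the sgNT/T618I libraries, 759.5, 521 and 573 bp in the sgB2/Empty libraries and 836, 1513 and 2046 bp in the sgNT/Empty libraries. All sgB2/Empty libraries were below every T618I library, while the sgNT/Empty libraries overlapped them. The log2 change with T618I was 0.86 ± 0.21 (SE, limma adjusted p = 0.0333; exact permutation p = 0.015). A stretch of 1032 bp was covered in at least 5 T618I and at most 2 Empty libraries, and it lay 326 to 1357 bases inside the gene from the start whose promoter is printed above, so it left out the window with the AP-1 matches. The call was lost without sgB2/T618I replicate 1, sgNT/T618I replicate 1 or 2, sgB2/Empty replicate 2 or 3, or sgNT/Empty replicate 2, with limma adjusted p from 0.0599 to 0.0755; over all alternatives the adjusted p ran from 0.019 to 1.0.

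Tmc6 and Tmc8 encode neighbouring transmembrane channel-like proteins, and the domain (chr11:117779047-117782240) covered a start of Tmc6. The cover was 2004.5, 1913 and 2085 bp in the sgB2/T618I libraries, 1671, 2415 and 2014 bp in the sgNT/T618I libraries, 634, 769.8 and 2100.8 bp in the sgB2/Empty libraries and 1128, 850.1 and 930.4 bp in the sgNT/Empty libraries. Every T618I library lay above 5 of the 6 Empty libraries, and sgB2/Empty replicate 3 stood among the T618I values. The log2 change was 0.88 ± 0.21 (SE, limma adjusted p = 0.0358; exact permutation p = 0.02). The joined run was 3194 bp for T618I libraries and 1741 bp for Empty libraries, so the T618I libraries gave the domain its place in the set. The T618I-covered stretch was 1045 bp long and lay 445 to 1489 bases before the printed Tmc6 start, outside the printed window. That start is internal to the annotated span of Tmc6 (chr11:117765985-117782193). The stretch thus lay within Tmc6, and it crossed the end of Tmc8 at 117781584. The call remained without sgB2/Empty replicate 3 or without sgNT/Empty replicate 1 and was lost without any other single library, with adjusted p from 0.0569 to 0.0839; over all alternatives the limma adjusted p ran from 0.000864 to 0.0888.

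Pcmt1 encodes the methyltransferase that repairs isoaspartyl residues in ageing proteins, and its domain (chr10:7662674-7665355) lay within the gene over an internal start. The cover was 2448, 1418.5 and 1736 bp in the sgB2/T618I libraries, 1239, 2307 and 1443 bp in the sgNT/T618I libraries, 1189, 899 and 992.5 bp in the sgB2/Empty libraries and 1335, 958 and 823 bp in the sgNT/Empty libraries. Only sgNT/T618I replicate 1 fell below the highest Empty library. The log2 change was 0.65 ± 0.17 (SE, limma adjusted p = 0.0487; exact permutation p = 0.01). The joined run was 2678 bp for T618I libraries and 1002 bp for Empty libraries, so this domain too was chosen through the libraries in which it is wide. The stretch covered with T618I measured 607 bp and ran from 641 to 35 bases before the internal start, so it held most of the printed Pcmt1 window. The call remained without sgB2/T618I replicate 2 or without sgNT/Empty replicate 1 and was lost without any other single library, with adjusted p from 0.0536 to 0.106; over all alternatives the limma adjusted p ran from 0.00217 to 0.182.

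**Figure D3:**
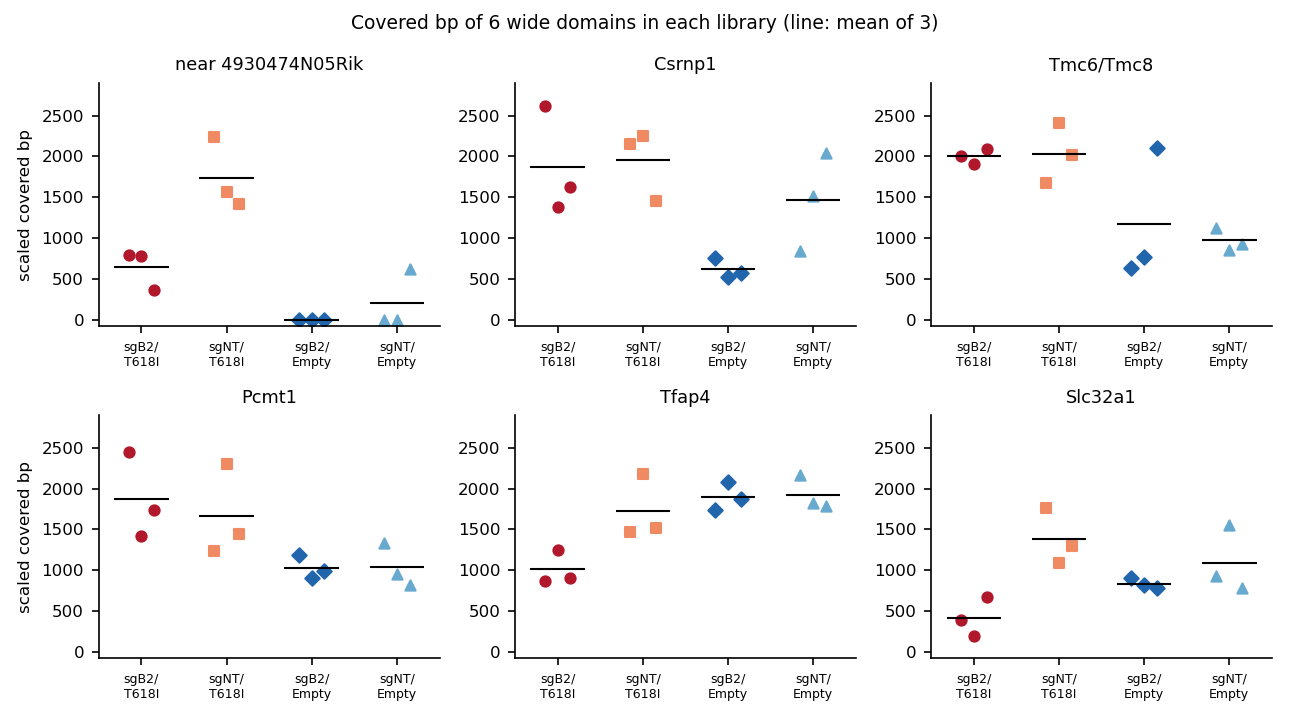
Each panel is a domain that passed a test, with scaled covered bp on the vertical axis; points are the 3 libraries of each group and lines are group means. The 3 sgB2/Empty libraries have no peak in the chromosome 14 domain. The scaled sgB2/T618I values of Tfap4 lie between 874 and 1254 bp, below every sgB2/Empty library, while the unscaled values of these groups overlap.

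Log2 changes of 1 or more that did not pass the T618I test were present at 4 domains, of which Map6, Cd74 and the one near Bmp2k are named after their values were seen. Each of the 4 had at least 1 Empty library with no peak. All 4 reached 2500 bp through the T618I libraries only. The joined runs of their Empty libraries were 690 bp at Map6, 1102 bp at Cd74, 1570 bp near Bmp2k and 773 bp at Smagp. A difference towards T618I was thus built into their choice, and their tests are no independent support for it. The log2 change was 1.44 ± 0.40 at Map6, a microtubule-associated protein (limma adjusted p = 0.0608), 1.38 ± 0.44 at Cd74 (0.103), 1.21 ± 0.41 near Bmp2k (0.128) and 1.12 ± 0.53 at Smagp (0.264). Kdm6b, the H3K27 demethylase, was covered over 2408 to 3447 bp in T618I libraries with a mean of 2794 ± 434 bp, and over 261 to 2938 bp in Empty libraries with a mean of 1690.0 ± 926 bp (SD, n = 6 each). Its log2 change was 0.87 ± 0.38 with a limma adjusted p of 0.243 and an exact permutation p of 0.01, and the low end came from sgB2/Empty replicate 1. The largest values below 0 were -0.76 ± 0.33 at Psma6, a proteasome subunit (0.231), and -0.69 ± 0.40 at Gm7827 (0.313). Psma6 reached 2500 bp through the Empty libraries only, with joined runs of 1716 bp for T618I and 2804 bp for Empty, so its choice favoured Empty.

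Among the myeloid factors, Gfi1 was covered over 2110, 1746.5 and 1591 bp in the sgB2/T618I libraries, 2623, 1229 and 1908 bp in the sgNT/T618I libraries, 2731.5, 2653 and 2219 bp in the sgB2/Empty libraries and 3202, 2079 and 2622 bp in the sgNT/Empty libraries. After scaling, the T618I libraries were mostly lower and overlapped the Empty libraries, with a log2 change of -0.45 ± 0.19 (SE, limma adjusted p = 0.213, exact permutation p = 0.03). Without scaling, the Gfi1 domain was covered over 1387 to 3154 bp in T618I libraries and over 1845 to 3153 bp in Empty libraries. The size of the difference thus depended on the scaling. Cebpb, a basic leucine zipper factor of stress granulopoiesis, had 1888 ± 379 bp in T618I libraries and 1970 ± 820.4 bp in Empty libraries (SD, n = 6 each), and its log2 change of 0.00 ± 0.21 did not pass (limma adjusted p = 0.997). The histone domain at H3c3 and H2bc3 had 1820 ± 286 bp in T618I libraries and 2024 ± 420 bp in Empty libraries (SD, n = 6 each), with a log2 change of -0.13 ± 0.16 (limma adjusted p = 0.641). Without scaling, this domain was covered over 1784 to 2589 bp with T618I and over 1460 to 1971 bp with Empty. At Cebpb these ranges were 1444 to 2442 bp and 1027 to 2483 bp. The lower T618I means at Cebpb and at H3c3/H2bc3 were present only after scaling.

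Position by position, 42 domains (41.58%) had a stretch of at least 100 bp that was covered in 5 or 6 T618I and at most 2 Empty libraries, and 5 (4.95%) had the reverse. A wider region has more room for a stretch: 26.11% and 2.181% of the regions from 1500 bp up to the limit had one, and 14.01% and 2.163% of all narrower regions. Such stretches made up 6.883% and 0.5262% of the bp of wide domains, against 5.638% and 0.3784% of the bp of the regions from 1500 bp up to the limit and 4.708% and 0.5447% of the bp of all narrower regions. The reverse stretch at Gfi1 measured 714 bp and lay 561 to 1274 bases before the start printed above. Stretches were counted from the lists as deposited, and the T618I lists were longer, so the list length moves with the first share. In 49 domains the T618I libraries alone reached 2500 bp and the Empty libraries alone did not, and in 13 the reverse held. Stretches covered mostly with T618I were therefore partly built into the choice of wide domains. The largest T618I stretches after Tmc6 and Csrnp1 lay at Irf2bp2 (1017 bp), Trim11 (837 bp) and Tsc22d2 (799 bp).

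**Figure D4:**
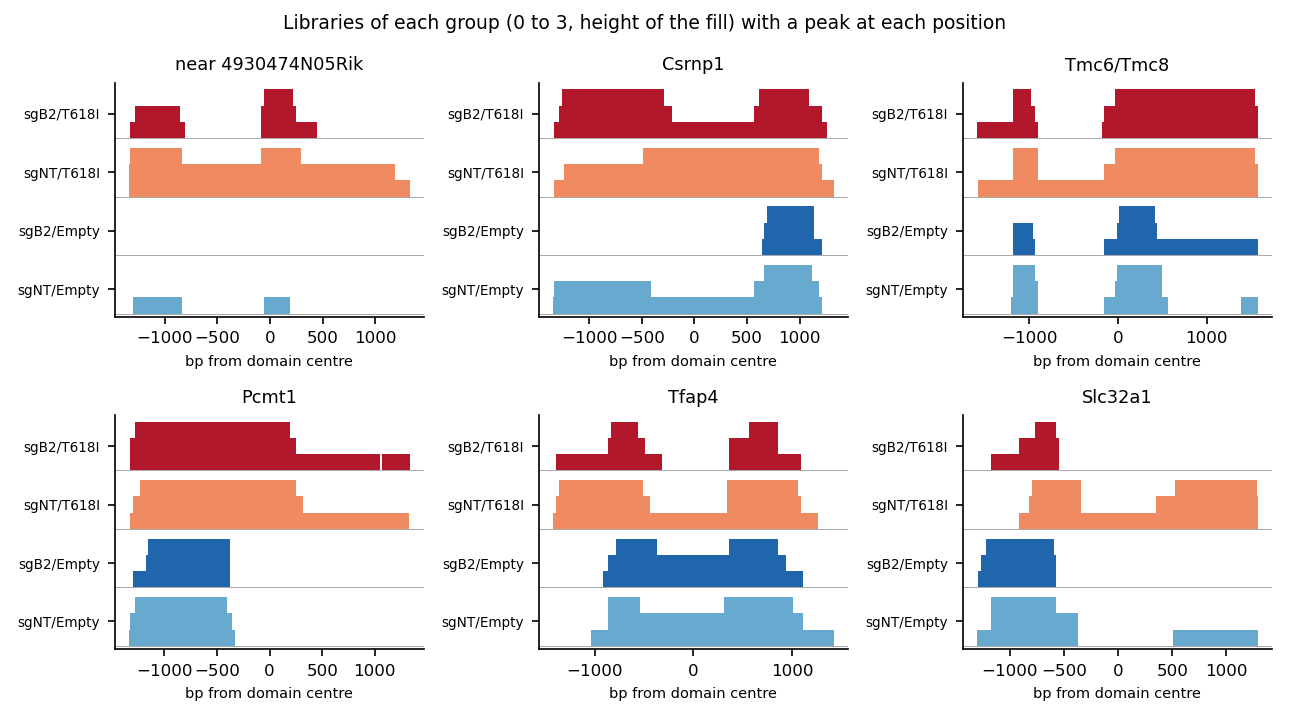
Each panel shows a domain by distance from its centre in bp, and the height of the fill gives how many of the 3 libraries of a group have a peak at that position, unscaled. All 3 sgB2/Empty libraries share a short part of the Csrnp1 and Pcmt1 domains, and no sgB2 library reaches the right end of the Slc32a1 domain.

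The Asxl1 guide was associated with narrower cover of 1 domain and with wider cover of 0. The comparison asks what the guide changed over both vectors. Of the 101 domains 0.99% passed as lower, against 0.725% of all tested regions, and none passed as higher, against 0.375%, or 1.1% of all tested regions in either direction. An unadjusted limma p below 0.05 was found in 14 domains in either direction (13.86%), against 11.15% of all tested regions. The median log2 change was -0.11 over the domains and 0.01 over all tested regions. A value below 0 was found in 63 of 101 domains, against 17975 of all 37113 tested regions. In 50 domains the sgNT libraries alone reached 2500 bp and the sgB2 libraries alone did not, and in 7 the reverse held. Values below 0 were therefore partly built into the choice of domains, and this shift is no independent support for a guide effect. In no domain were the sgB2 libraries all above or all below the sgNT libraries, against 0.358% and 0.42% of all tested regions.

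Other domains with low values in sgB2 libraries did not pass. Among them, with Dach1 named after its values were seen, the log2 change was -0.95 ± 0.37 at Hmga2 (limma adjusted p = 0.325), -0.84 ± 0.20 at Slc32a1 (0.0687) and -0.79 ± 0.22 at Dach1, a transcriptional corepressor (0.112). The Slc32a1 domain reached 2500 bp through the sgNT libraries only, so a lower sgB2 value was built into its choice. At Hmga2 the cover was 791 ± 738 bp in sgB2 libraries and 1422 ± 377 bp in sgNT libraries (SD, n = 6 each), and a stretch of 1012 bp around the gene start, from 728 bases before it to 283 bases after it, was covered in at most 2 sgB2 and at least 5 sgNT libraries. Without sgB2/Empty replicate 3 this domain passed, as Hmga2 then had a log2 change of -1.345 at a limma adjusted p of 0.0103. Stretches of this kind were found in 17 domains (16.83%), against 15.33% of the regions from 1500 bp up to the limit and 7.748% of all narrower regions. They made up 2.376% of the bp of wide domains, against 3.222% and 2.309% of the bp of those regions. A stretch that ran the other way was found in no domain. Such a stretch was found in 1.19% of the regions from 1500 bp up to the limit and 1.391% of all narrower regions, so its absence lay close to these shares. More domains were joined to 2500 bp by sgNT than by sgB2 libraries alone, so stretches with few sgB2 libraries were partly built into the choice. The largest value above 0 at a domain with peaks in all 12 libraries was 0.45 ± 0.21 at Jade2 (limma adjusted p = 0.445).

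**Figure D5:**
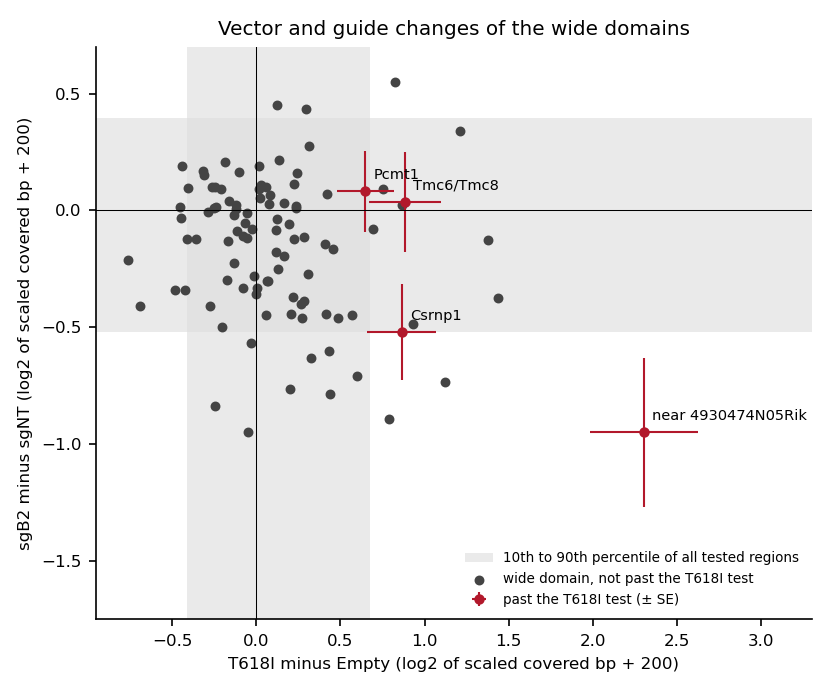
The horizontal axis is the log2 change of T618I over Empty and the vertical axis the log2 change of sgB2 over sgNT, both of scaled covered bp plus 200 bp; points are the wide domains apart from the 1 that passed the sgB2 test, red points with bars (± SE) passed the T618I test and the grey bands span the 10th to 90th percentile of all tested regions. Csrnp1, Tmc6/Tmc8, Pcmt1 and the chromosome 14 site lie to the right at log2 changes of 0.65 to 2.304.

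Within single genotypes few domains were called, and comparisons that share libraries are not independent. In sgNT cells T618I was called in 1 domain, against 1.78% of all tested regions (1.47% as higher and 0.307% as lower), the chromosome 14 site near 4930474N05Rik with a log2 change of 2.58 (limma adjusted p = 0.0171). This site was chosen through its T618I peaks, as given above, and its call was lost without sgNT/T618I replicate 1 (0.0596) or sgNT/Empty replicate 2 (0.0593) and ran from 0.000546 to 1.0 over all alternatives. In sgB2 cells T618I was called in 3 domains, against 2.93% of all tested regions (2.16% as higher and 0.771% as lower). These were Csrnp1, higher by 1.31 (limma adjusted p = 0.0328), the chromosome 14 site, higher by 2.03 against a group with no listed peak (0.0336), and Tfap4, where T618I was lower with a log2 change of -0.81 (0.0388). Tfap4 encodes the helix-loop-helix factor AP-4, and its domain had 874, 1254 and 899 bp of scaled cover in the sgB2/T618I libraries and 1744, 2078 and 1877 bp in the sgB2/Empty libraries. These 3 and 3 libraries did not overlap after scaling. Without scaling they had 837, 1605 and 808 bp and 1178, 1806 and 1766 bp, which overlapped. The log2 change was then -0.509 at a limma adjusted p of 0.355. The sgNT/T618I libraries had 1474, 2174 and 1519.6 bp there and the sgNT/Empty libraries 2170.4, 1824 and 1788.5 bp, which overlapped.

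These calls in sgB2 cells were lost when some single libraries were left out. Csrnp1 was lost without sgB2/T618I replicate 1 or 3, sgNT/T618I replicate 1 or 2 or any sgB2/Empty library (limma adjusted p from 0.0508 to 0.111), and over all alternatives ran from 0.0146 to 1.0. The chromosome 14 site was lost without sgB2/T618I replicate 1 or 2 or any sgNT/T618I or sgB2/Empty library (0.0575 to 0.115), and over all alternatives ran from 0.00274 to 1.0. Tfap4 was lost without sgB2/T618I replicate 1 or 3, sgNT/T618I replicate 1 or 3, any sgB2/Empty library or sgNT/Empty replicate 2 (0.0543 to 0.124), and over all alternatives ran from 0.0243 to 0.587.

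The guide was called in 1 domain in Empty cells, against 0.868% of all tested regions (0.509% as lower), and 1 domain in T618I cells, against 1.41% (0.881% as lower). The domain in T618I cells lay within Slc32a1, the vesicular transporter of GABA and glycine (chr2:158613013-158615629), and was covered over 390.5, 194 and 674.5 bp in the sgB2/T618I libraries and over 1761, 1088 and 1295 bp in the sgNT/T618I libraries. These libraries did not overlap, whereas the 900.1, 816 and 786 bp of the sgB2/Empty libraries overlapped the 927, 1549 and 783 bp of the sgNT/Empty libraries. The domain reached 2500 bp through the sgNT libraries only, with joined runs of 765 bp for sgB2 and 2617 bp for sgNT, so a lower sgB2 value was built into its choice and the test is no independent support for it. The log2 change in T618I cells was -1.41 (limma adjusted p = 0.029), and it was lost without sgB2/T618I replicate 1 or 2 or sgNT/T618I replicate 1 or 3 (0.069 to 0.117) and ran from 0.0112 to 1.0 over all alternatives.

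Whether the effect of T618I depended on the guide was tested as the interaction, which called 0 of the 101 domains with limma, against 0.0269% of all tested regions (0.0189% above and 0.00808% below 0). Its unadjusted p was below 0.05 in 7 domains (6.931%), against 5.702% of all tested regions. For Slc32a1 the interaction was -1.13 (limma adjusted p = 0.563), for Csrnp1 0.89 (0.743) and for Tfap4 -0.65 (0.743), so these calls in single genotypes were not shown to differ between them.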

How the data were processed

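Accessible chromatin was profiled by ATAC-seq in 12 libraries, 3 in each of 4 groups. The deposited broad peak lists give per peak a whole-number score (not used), a fold over local background (ratio) and −log10 p and q values from the authors' peak caller, as read from the layout and the values. The submitters' processing notes name BWA 0.7.17, SAMtools 1.9, bedtools 2.30, MACS2 2.2.7.1 and deepTools 3.5 with mm10; settings are not given in the sources used here. Peaks of each library carry its own name, so lists were not pooled. Lists hold no reads, so depth is unknown and no counting interval is given. A library with a longer list can join more peaks.

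Peaks overlapping by 1 bp were merged, covered bp were scaled to the mean list length, and log2(bp + 200) was fitted with limma 3.58.1 (trend, 8 residual degrees of freedom, R 4.3.3) over 37113 regions with a peak in at least 2 libraries. P-values were Benjamini-Hochberg adjusted per comparison over 7 comparisons; the fit was tested on simulated data. Exact two-sided permutation tests exchanged labels within the other factor (400 arrangements). Names are RefSeq's (GRCm38.p6, the same assembly as mm10). The domains, gene lists and tests were chosen with earlier results of these data known. Domains were named for being among the 10 widest, for passing a test, for lying beside the width limit or for holding a listed gene; others are said to be named after their values were seen. The 1 domain that passed the sgB2 test, and that in Empty cells, is not reported here. No pairing by replicate number was assumed, as the labels do not say what the numbers mark. Alternatives covered the pseudocount, scaling, filter, peak threshold, joining rule, width, tool and left-out libraries.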

Additional observations from a re-analysis of the deposited data

How the results depend on the processing

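Over both guides, T618I was called higher in 4 domains in the reported fit. The count was 9 with no scaling to list length, 2 with stricter peaks (−log10 q of at least 3), 2 with lists of equal length, 22 of 405 domains at a width of at least 2000 bp, 1 of 19 at 3000 bp, 2 with the replicate number as a block, 2 without the 2 libraries of least covered length, 1 of the 30 domains that each vector alone joined to 2500 bp, and 1 to 5 when single libraries were left out. Of all 37113 tested regions, T618I was called higher in 1524 in the reported fit, 2280 with no scaling and 1131 with stricter peaks. It was called higher in 496 with equal-length lists, 952 with the replicate block and 1157 without the 2 libraries of least covered length. In these settings the whole set thus moved in the same direction as the domains. T618I was called lower in 0 domains, in 1 with 100 bp added, with equal-length lists or with robust limma, in 4 at 2000 bp, and in 0 to 1 with single libraries left out. Of all tested regions it was called lower in 489 in the reported fit, 479 with 100 bp added, 617 with equal-length lists and 360 with robust limma. The sgB2 guide was called higher in 0 domains, in 1 with equal-length lists and in 0 with any library left out. Of all tested regions it was called higher in 139 in the reported fit and 444 with equal-length lists. It was called lower in 1 domain. That count was 2 with no scaling and 5 at 2000 bp. It was 0 with 100 bp added, equal-length lists, chromosomes 2 to 19 only, 3000 bp, the replicate block, robust limma or the 35 domains each guide alone joined to 2500 bp, and it was 0 to 2 with single libraries left out. Of all tested regions the guide was called lower in 269 in the reported fit, 541 with no scaling, 259 with 100 bp added and 134 with equal-length lists. That number was 225 of 33117 with chromosomes 2 to 19 only, 165 with the replicate block and 242 with robust limma.

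T618I in sgNT cells had 1 call. It had 3 with no scaling, 9 at 2000 bp, 0 with stricter peaks, 3000 bp, domains with a peak in all 12 libraries, both low libraries left out or domains each vector alone joined, and 0 to 2 with single libraries left out. T618I in sgB2 cells had 3 calls. It had 6 when scaled to regions with a peak in all 12 libraries, 14 at 2000 bp, 1 with 1000 bp added, stricter peaks, the replicate block or domains each vector alone joined, 0 with equal-length lists or 3000 bp, and 0 to 4 with single libraries left out. sgB2 in Empty cells had 1 call, 3 at 2000 bp, 2 without both low libraries, 0 to 2 with single libraries left out, and 0 with 100 bp added, scaling to regions with a peak in all 12 libraries, equal-length lists, chromosomes 2 to 19 only, 3000 bp, the replicate block, robust limma or domains each guide alone joined. sgB2 in T618I cells had 1 call, 4 at 2000 bp, 0 to 2 with single libraries left out, and 0 with no filter, a filter at 6 libraries, stricter peaks, 3000 bp, the replicate block or domains each guide alone joined. The interaction had 0 calls, 1 with equal-length lists and 0 with any library left out. The number of domains, 101, was 52 with equal-length lists, 405 at 2000 bp, 19 at 3000 bp and 87 to 101 with single libraries left out. The cause of these changes was not tested, beyond the change in the number of domains that the width rules make. For the comparisons within single genotypes and the interaction, calls over all tested regions were not counted by setting.

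Without scaling, the median log2 change of all tested regions moved to 0.14 for T618I, from -0.03, and to -0.09 for sgB2, from 0.01, and the medians of the domains were then 0.34 and -0.27. Same-numbered libraries of different groups had correlations of deviations of -0.099 to 0.125 over 18 pairs, and differently numbered ones -0.181 to 0.155 over 36, so no pairing by number was seen. Such correlations cannot exclude that same-numbered libraries were prepared together. No call changed sign under an alternative. Of 30 changes of named domains that did not pass, 19 changed sign under at least 1 alternative and 1 (Hmga2, sgB2) passed under one. Domains joined from several lists depend on list length, and depth is unknown. The alternatives that left out both low libraries or took domains joined by each vector or guide alone were chosen after seeing the data.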

Other observations

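Peaks of 2500 bp or more were also listed on contigs that the assembly does not place on a chromosome, 5 to 7 in each library. The widest in every library lay on contig JH584304 and measured 5620 to 6737 bp in T618I libraries and 5623 to 7539 bp in Empty libraries. On chromosomes 1 and X, 6 further merged regions of 2500 bp or more had a peak in at least 6 libraries, among them regions at Mgat5, a glycosyltransferase, Bcor, a subunit of a variant Polycomb complex, and Atg4a, a protease of autophagy. Wide domains lay near each other in a few places, such as the domains at Cln3/Apobr and Coro1a, 116.5 kb apart, the domains near H4c8 and at H3c3/H2bc3, 224.8 kb apart, and the domains at Hes7/Aloxe3 and Kdm6b, 283.1 kb apart. Of the 101 domains, 56 held a stretch covered mostly by the libraries of 1 vector or guide, and 6 held both a T618I-higher and an sgB2-lower stretch. These joint counts were not made for narrower regions, and such stretches were partly built into the choice of domains.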
